A study of Mus musculus with 37 samples.

Results

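The cells described here are mouse embryonic fibroblasts in which transcripts of Gata6 and Mef2c were detected together, set against fibroblasts of the same libraries in which Mef2c was detected without Gata6. All cells were ICR embryonic fibroblasts infected with retroviral vectors carrying 1 pool of 48 factors and collected at day 7. Single cells were sequenced by Drop-seq, a droplet method in which polyadenylated RNA is captured on a bead with a cell barcode. The labels give 37 technical replicates of 1 biological replicate and no untreated cells, so both groups came from the same culture and p-values measure only the spread between technical libraries. Cells with a count of Myod1, a skeletal muscle factor of the pool, were set aside (352 cells). Of 8565 cells, 573 (6.69%) held at least 1 count each of Gata6 and Mef2c and are called Gata6+Mef2c cells below. The cells were thus chosen by their counts of Gata6, Mef2c and Myod1, which are described and not tested. Each Gata6+Mef2c cell was paired with a different cell that held Mef2c but no Gata6, had a similar total count and came from the same library; these 573 of 1460 such cells are called Mef2c-only cells. A further 1298 cells held Gata6 alone and 4882 cells held neither transcript. Every group came from a culture infected with the whole pool, and which vectors a cell carries was not measured. The promoter of the vectors is not given in the sources used here. Whether a transcript came from a vector or from the cell's own gene is not known from its count. A cell that carries Gata6 below detection therefore counts as Mef2c-only.

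GATA6 is a zinc finger transcription factor of heart, endoderm and mesoderm linings that binds GATA words in DNA. MEF2C is a MADS box factor of heart and skeletal muscle, and both GATA and MEF2 factors have been used to turn fibroblasts towards cardiomyocytes. The mesothelium is the epithelial sheet that lines the body cavities and their organs, and the epicardium is its counterpart on the heart.

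The start sites of 4 genes that differed between the groups are shown because their promoters differ in GATA words. Upk3b and Lrrn4 encode surface proteins of mesothelium, Nppa encodes the atrial natriuretic peptide and Hand2 encodes a heart and mesoderm factor that is also in the pool. The sequences are the 250 bases before the RefSeq start (GRCm38.p6), 5′ to 3′ on the strand of the gene, and capitals mark the word GATA with A or T before it and A or G after it, on either strand. They cover chr5:136038246-136038495 on the plus strand for Upk3b, chr2:132880863-132881112 on the minus strand for Lrrn4, chr4:148000472-148000721 on the plus strand for Nppa and chr8:57320733-57320982 on the plus strand for Hand2.
Upk3b: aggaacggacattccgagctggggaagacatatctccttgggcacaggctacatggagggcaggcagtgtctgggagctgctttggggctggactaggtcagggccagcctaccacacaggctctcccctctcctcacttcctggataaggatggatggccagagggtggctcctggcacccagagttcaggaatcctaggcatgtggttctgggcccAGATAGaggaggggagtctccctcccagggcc
Lrrn4: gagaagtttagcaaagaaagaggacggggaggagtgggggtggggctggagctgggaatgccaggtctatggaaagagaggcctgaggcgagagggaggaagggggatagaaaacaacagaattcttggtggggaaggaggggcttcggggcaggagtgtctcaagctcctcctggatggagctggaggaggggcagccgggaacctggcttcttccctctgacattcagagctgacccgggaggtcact
Nppa: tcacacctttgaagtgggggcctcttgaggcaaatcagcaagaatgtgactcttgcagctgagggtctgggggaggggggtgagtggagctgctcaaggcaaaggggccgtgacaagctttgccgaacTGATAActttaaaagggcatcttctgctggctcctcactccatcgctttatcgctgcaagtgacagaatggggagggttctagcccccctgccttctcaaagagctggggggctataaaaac
Hand2: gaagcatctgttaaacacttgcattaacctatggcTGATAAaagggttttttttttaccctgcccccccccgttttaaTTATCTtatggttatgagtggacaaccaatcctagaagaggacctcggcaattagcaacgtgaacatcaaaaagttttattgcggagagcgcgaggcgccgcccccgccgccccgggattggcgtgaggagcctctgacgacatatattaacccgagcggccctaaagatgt
Upk3b held 1 word whose first base lay at -32 from the start, Nppa held 1 at -122, Hand2 held 2 at -215 and -172, and Lrrn4 held none in this window. Of the 29 genes that the naming rule selects among those higher in Gata6+Mef2c cells, 17 matched a RefSeq promoter, counted here with the 50 bases after the start as well. A word was present in 9 of these 17 (52.9%), against 29.8% of all 32851 promoters of 300 bases. The nearest RefSeq start was taken at any distance from the GENCODE start of the gene. It lay 19987 bases away for Tnni1, 8387 for Cyp11a1, 2139 for Fgf9, 1518 for Krt14 and at most 673 for the others. Fgf9 and Krt14 were among the 9 with a word. The MEF2 site was in none of the 17 and in 3.19% of all promoters. Of all promoters, 31 held a GATA word that overlapped a MEF2 site or lay within a few bases of it. A match is a description of letters, not of binding.

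The deposited tables held raw counts for 27999 gene rows and 8730 barcodes in 37 libraries, of which 8565 cells were kept. Libraries held 637680 to 7921171 counts in 70 to 548 cells, and the median cell had 8553 counts. Technical replicates 4 and 6 shared 59 barcodes, while no other pair shared more than 4, so these were counted as 1 library and n = 36 throughout. The 20 fibroblast markers summed to 15670 ± 2961 counts per 1000000 (CPM) in Gata6+Mef2c cells and 16660 ± 2042 CPM in Mef2c-only cells (SD, n = 36 libraries each). CPM is the share of all counts of that group in a library. There is no reference cell type for this sum, so it is not a test of the fibroblast label. Matched cells had median totals of 19104 counts in Gata6+Mef2c cells and 17956 counts in Mef2c-only cells. The match was incomplete for the deepest cells, since 38 pairs differed more than 2-fold and the mean totals were 29974 and 23867 counts. A library contributed 3 to 34 pairs, with a median of 14.5.

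Gata6 defined the groups, and its level is given as a description. It lay between 55.9 and 652 CPM over the libraries of Gata6+Mef2c cells, with a median of 135 CPM, and at 0 in every library of Mef2c-only cells. Of the 573 Gata6+Mef2c cells, 245 held 1 count of Gata6, 94 held 2 and 234 held 3 or more, with a maximum of 44. Mef2c was at 97.0 ± 62.1 CPM in Gata6+Mef2c cells and 83.6 ± 24.2 CPM in Mef2c-only cells (SD, n = 36 each). Just 1 count of Mef2c was held by 318 of the 573 Gata6+Mef2c cells and by 346 of the 573 Mef2c-only cells. Among 43 cells with macrophage markers, 23.3% held a count of Gata6 (95% exact Clopper-Pearson interval 11.8 to 38.6%). The share was 23.4% in all other cells, at median totals of 9503 and 8553 counts. Such cells can serve as a check of free RNA in droplets only for a gene that they do not make. The share of cells with a Gata6 count is thus at the level of the macrophage-marked cells, so a single count of Gata6 is not read as expression of the gene, and results with at least 2 counts are given beside the threshold below. The macrophage-marked cells were in the same infected culture. Whether they carry the pool, or make Gata6 or Mef2c from their own genes, was not tested. A count of Mef2c was found in 76.7% of them, so a single count of Mef2c is not read as expression either.

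Counts were summed per library and group and tested with edgeR's quasi-likelihood test with the library as a block, and a gene was called at a Benjamini-Hochberg adjusted p under 0.05 over all 14712 genes tested. Gata6+Mef2c cells had 111 genes higher (0.754% of those tested) and 16 lower (0.109%), together 0.863%. The median log2 fold change over all genes tested was 0.015. The steroid synthesis gene Cyp11a1 had the largest fold change of the named genes, followed by the mesothelial gene Upk3b, while the type IV collagen genes Col4a1 and Col4a2 and the laminin gene Lamc1 rose by small amounts. The genes that fell were fewer and changed less, and among them were the paired-type homeobox genes Prrx1 and Prrx2, which mark limb and body wall mesenchyme.

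**Figure D1:**
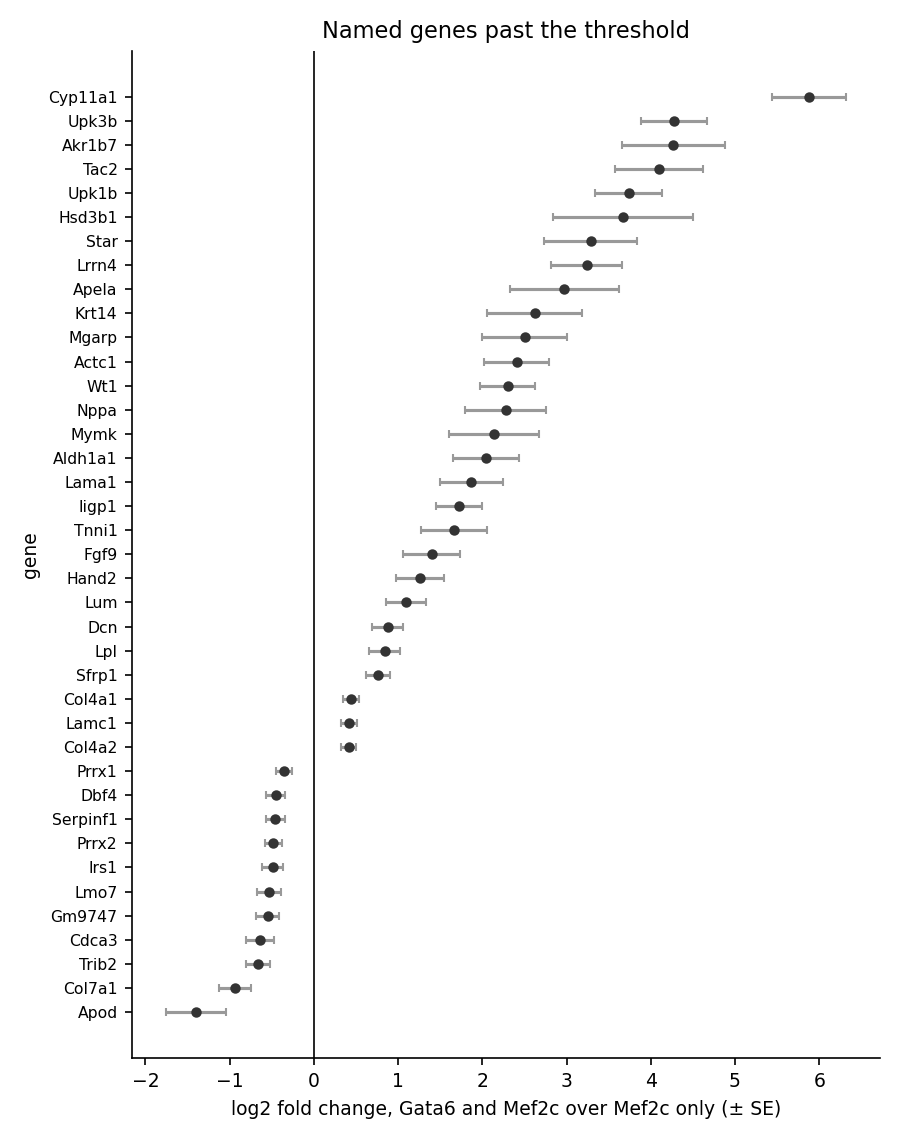
Log2 fold change (x axis, Gata6+Mef2c cells over Mef2c-only cells, bars ± SE derived from the edgeR test over 36 libraries) of each named gene past the threshold (y axis). Cyp11a1 stands highest at 5.88, Upk3b follows at 4.28, the basement membrane genes sit near 0.4, and the lower genes lie between -0.35 and -1.40.

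The fold change of the higher genes varied with the number of cells that hold the gene. Of the 111 higher genes, 44 were found in fewer than 100 of the 573 Gata6+Mef2c cells, with a median log2 fold change of 2.18 and none under 1.25. Another 42 were found in 300 cells or more, with a median of 0.42 and none above 0.87, and 25 lay between. A gene held by few cells passes the threshold only with a large fold change, so small ones are not to be seen there. For 33 of the 111 genes, over 50% of the counts in Gata6+Mef2c cells came from 10 cells.

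**Figure D2:**
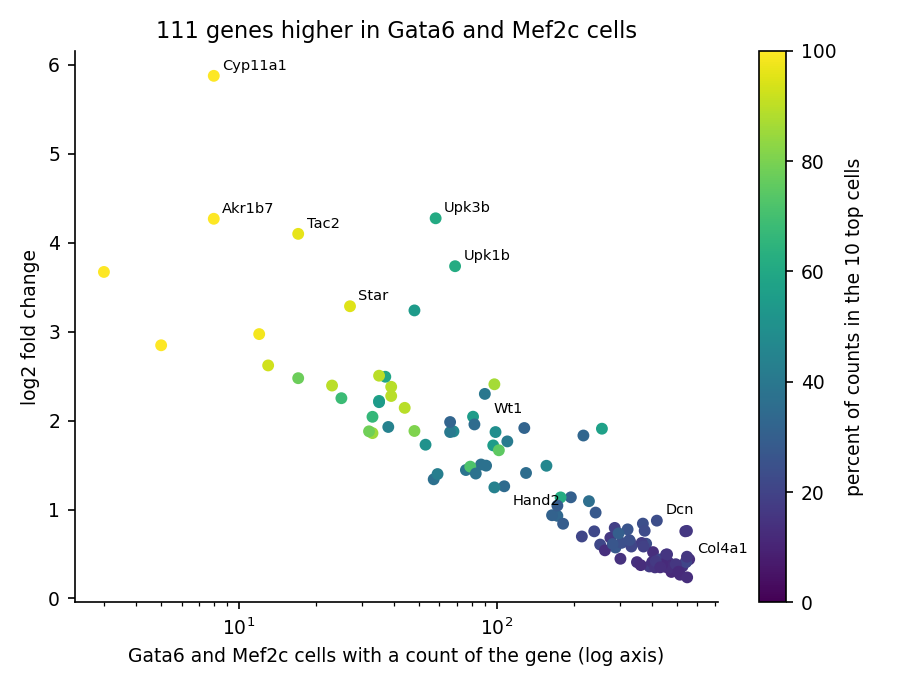
Each point is 1 of the 111 genes higher in Gata6+Mef2c cells, placed by how many of the 573 cells hold a count (x axis, log scale) and by its log2 fold change (y axis), and coloured by the percent of its counts in the 10 richest cells. Cyp11a1 and Akr1b7 sit at 8 cells with 100% of counts in 10 cells, Upk3b at 58 cells, and Col4a1 at 558 cells with a log2 fold change of 0.44.

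Mesothelial and epicardial markers had more genes called higher than any other of the 25 lists tested. Of 22 mesothelial and epicardial markers, 21 were tested, 9 were higher in Gata6+Mef2c cells and none was lower, and all 21 fold changes were above 0, with a median of 1.51 against 0.015 over all genes. The summed level of the list ranged from 374 to 2217 CPM in Gata6+Mef2c cells, with a median of 919 CPM, and from 192 to 1539 CPM in Mef2c-only cells, with a median of 410.5 CPM. It was higher in Gata6+Mef2c cells in 31 of 36 libraries, although the ranges overlap.

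**Figure D3:**
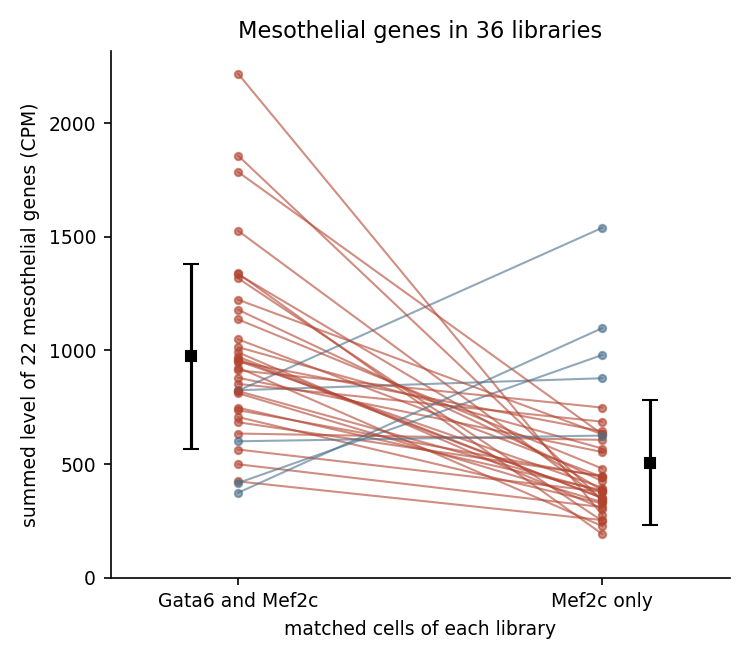
Summed level of the 22 mesothelial and epicardial markers (y axis, CPM) in Gata6+Mef2c cells and Mef2c-only cells, with 1 point for each of 36 libraries, a line joining the groups of a library (red where Gata6+Mef2c cells are higher, blue where lower), and the mean ± SD as black squares and bars. The means are 974 ± 408 CPM in Gata6+Mef2c cells and 506 ± 275 CPM in Mef2c-only cells, and 31 of the lines are red.

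Upk3b (ENSMUSG00000042985, chr5:136038496-136046487, GENCODE on GRCm38) encodes uroplakin 3b, a membrane protein of mesothelium and urothelium. Its level was 0 CPM in the lowest library, 17.6 CPM in the median library and 217 CPM in the highest library of Gata6+Mef2c cells, against 0, 0 and 58.0 CPM in Mef2c-only cells. Most libraries of Mef2c-only cells held no count of it (29 of 36), while 7 libraries of Gata6+Mef2c cells held none, so the groups overlap at the low end. The log2 fold change was 4.28 ± 0.39 (SE, edgeR adjusted p = 6.5e-10), higher in 26 of 36 libraries and lower in 4. Upk1b (chr16:38773184-38800328), a tetraspanin partner of the uroplakins, had 0, 55.0 and 235 CPM in the lowest, median and highest library of Gata6+Mef2c cells, against 0, 0 and 106 CPM in Mef2c-only cells. It rose by 3.74 ± 0.40 on the log2 scale (SE, edgeR adjusted p = 1.28e-08), in 28 of 36 libraries. Both uroplakin genes were thus low or absent in most libraries of Mef2c-only cells and present in most libraries of Gata6+Mef2c cells.

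Lrrn4 (chr2:132868305-132880891), a leucine-rich repeat membrane protein, lay at 0, 8.01 and 99.8 CPM in the lowest, median and highest library of Gata6+Mef2c cells, against 0, 0 and 19.3 CPM in Mef2c-only cells. Its log2 fold change was 3.24 ± 0.42 (SE, edgeR adjusted p = 7.53e-06), with 23 libraries higher and 3 lower. With DESeq2 in place of edgeR the change of Lrrn4 was 2.80 (adjusted p = 0.0844), past no threshold. Wt1 (chr2:105126529-105173616), the zinc finger factor of epicardium, mesothelium and kidney progenitors, had 0, 13.4 and 71.3 CPM in Gata6+Mef2c cells, against 0, 0 and 17.6 CPM in Mef2c-only cells. It was higher in 30 of 36 libraries, by 2.30 ± 0.33 on the log2 scale (SE, edgeR adjusted p = 1.55e-05). Wt1 therefore differed in more libraries than either uroplakin gene, though by less.

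The other 5 genes called were Gpm6a, a neuronal and mesothelial membrane glycoprotein (log2 fold change 2.49, edgeR adjusted p = 0.00306), the simple epithelial keratin Krt18 (1.91, 0.00136), the zinc finger factor Bnc1 (1.88, 0.00195), mesothelin or Msln (1.87, 0.00588) and Aldh1a2, which makes retinoic acid in the epicardium (1.51, 0.00674). Muc16, the mucin of the mesothelial surface, had a value of 2.47 with an adjusted p of 0.0751. Krt8, the usual partner of Krt18, had 1.09 (adjusted p = 0.432), Krt7 had 0.89 (0.239), Krt19 had 0.42 (0.714), Podxl had 1.74 (0.298) and Tcf21, an epicardial factor, had 0.89 (0.727). Of the 4 simple epithelial keratins on the list, 3 did not pass the test.

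The mesothelial level was unevenly spread over cells. The median cell had 4.12 mesothelial counts per 10000 in Gata6+Mef2c cells and 3.21 in Mef2c-only cells, the 90th percentile was 29.7 and 9.55, and the highest cell had 209 and 114. The 57 richest cells held 59.4% of all mesothelial counts in Gata6+Mef2c cells and 52.6% in Mef2c-only cells. Upk3b was detected in 10.1% of Gata6+Mef2c cells and 1.75% of Mef2c-only cells, or 6.45% and 0.554% after each cell was thinned to 5000 counts (543 and 542 cells deep enough). Wt1 was detected in 15.7% of Gata6+Mef2c cells and 4.01% of Mef2c-only cells, or 4.97% and 1.29% after thinning. In the 43 macrophage-marked cells, which should lack these genes, 2.33% held Upk3b and 4.65% held Wt1, and 0% of the 39 deep enough held either after thinning. For Upk1b the shares were 12.0% of Gata6+Mef2c cells and 2.97% of Mef2c-only cells, against 11.6% of macrophage-marked cells, and after thinning they were 7.74%, 0.738% and 2.56%. The unthinned Upk1b share of Gata6+Mef2c cells is thus at the level of the macrophage-marked cells, a group of 43 cells.

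Cells with several mesothelial markers at once were counted apart. At least 3 counts from at least 2 of 6 markers (Upk3b, Upk1b, Lrrn4, Msln, Muc16 and Wt1) were found in 58 Gata6+Mef2c cells and 9 Mef2c-only cells. Without them, 515 pairs gave 44 genes higher and 6 lower, all among the 111 and 16, and 2 mesothelial genes remained called. Upk1b was then at 0.59 (adjusted p = 0.924) and Wt1 at 1.62 (adjusted p = 0.0164). These cells were set aside by the genes compared, so the values are a description of how the counts are spread. The mesothelial difference also varied with the library series: the log2 ratio of pooled list levels was 1.32 in series JD, 0.67 in PZ47-PZ48 and 0.47 in PZ58, with 8, 2 and 0 of the list called.

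Basement membrane genes differed by less, and those of type IV collagen were found in nearly every cell. Of the 18 endoderm and basement membrane genes listed, 10 were tested and 4 were higher: Col4a1 and Col4a2, the chains of type IV collagen, and Lama1 and Lamc1, chains of laminin. The endoderm regulators on that list (Sox17, Foxa2, Hnf4a) and its yolk sac and liver products (Afp, Ttr) were at or near 0 in both groups, so the 4 genes that rose are structural and none is a regulator of endoderm. The median log2 fold change of the list was 0.30, and 9 of 10 values were above 0. Col4a1 (chr8:11198423-11312826) lay at 186, 769 and 1737 CPM in the lowest, median and highest library of Gata6+Mef2c cells, against 256, 539 and 945 CPM in Mef2c-only cells. The ranges overlap, with Gata6+Mef2c cells higher in 29 of 36 libraries, and the log2 fold change was 0.44 ± 0.09 (SE, edgeR adjusted p = 0.00497). Col4a2, which starts 21 bases from Col4a1 on the other strand, changed by 0.41 ± 0.09 (adjusted p = 0.0127). Because the gene models overlap at their starts and the strand setting of the counting is not given in the sources used here, reads of that overlap cannot be assigned to one of them. Lamc1 lay at 40.3, 121 and 193 CPM in Gata6+Mef2c cells, against 42.9, 91.4 and 129.5 CPM in Mef2c-only cells, a change of 0.42 ± 0.09 (adjusted p = 0.0114). Lama1, a chain of early embryonic and epithelial basement membranes, was found in 66 Gata6+Mef2c cells and 18 Mef2c-only cells and rose by 1.87 ± 0.37 (adjusted p = 0.00385). The type IV collagen genes were thus held by far more cells than Lama1.

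Of the small leucine-rich proteoglycans, which bind collagen fibrils, 9 were tested and the neighbours Dcn and Lum were higher. Dcn (decorin, chr10:97479609-97518143) lay at 79.6, 266 and 939 CPM in Gata6+Mef2c cells, against 41.6, 156 and 882 CPM in Mef2c-only cells. It was higher in 30 of 36 libraries, by 0.87 ± 0.19 on the log2 scale (SE, edgeR adjusted p = 0.00757). A Dcn count was found in 73.0% of Gata6+Mef2c cells and 53.9% of Mef2c-only cells, or 52.9% and 30.6% after thinning, against 41.9% and 38.5% of macrophage-marked cells. Lum (lumican, chr10:97565128-97572703) lay at 0, 91.2 and 745 CPM in Gata6+Mef2c cells, against 0, 35.6 and 379 CPM in Mef2c-only cells, a rise of 1.09 ± 0.24 (adjusted p = 0.00825). The other 7 members had fold changes between -0.01 and -0.41, and none was called, so the list as a whole stood at a median of -0.19. With cells matched on the Mef2c count too, in classes of 1, 2 and 3 or more counts, Lum was at 0.73 (adjusted p = 0.199).

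Secreted regulators moved in small number. Of 18 BMP, Wnt and FGF ligands and inhibitors tested, Sfrp1 and Fgf9 rose and none fell, at a list median of 0.31. Sfrp1, a secreted inhibitor of Wnt ligands, lay at 33.8, 220.1 and 662.5 CPM in the lowest, median and highest library of Gata6+Mef2c cells, against 13.9, 117 and 500.1 CPM in Mef2c-only cells. Its log2 fold change was 0.76 ± 0.15 (SE, edgeR adjusted p = 0.00218), with 28 of 36 libraries higher. Fgf9, a growth factor that the mesothelium and epicardium secrete, was found in 59 Gata6+Mef2c cells and 22 Mef2c-only cells and rose by 1.40 ± 0.34 (adjusted p = 0.0245), but was at 0.0519 without technical replicate 4. Aldh1a1, which makes retinoic acid, was higher by 2.04 ± 0.39 (adjusted p = 0.00195). The retinoic acid response list that holds Aldh1a1 (10 genes tested) had a median of 0.20, with 7 above 0. Its summed level was higher in Gata6+Mef2c cells in 18 of 36 libraries. The lipase Lpl, which releases fatty acids from lipoproteins, was the 1 gene called of 11 fat cell and lipid uptake genes tested, at 0.84 ± 0.18 (adjusted p = 0.0081). It was at 0.13 (adjusted p = 1.0) among cells without other factors, described below. Of 6 other epithelial genes tested, the basal keratin Krt14 was called, with 41 counts in 13 Gata6+Mef2c cells and 1 count in Mef2c-only cells. That is a ratio of 32.7, with a 95% counting interval of 5.54 to 1321, and without technical replicate 30 its adjusted p was 0.0588.

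The genes of steroid hormone synthesis that were called included the largest fold change, and their counts came from few cells. Cyp11a1, the side chain cleavage enzyme that starts steroid synthesis, had 706 counts in 8 Gata6+Mef2c cells and 5 counts in 2 Mef2c-only cells, with a median of 0 CPM in both groups and highest libraries of 1678 and 18.8 CPM. Its log2 fold change was 5.88 ± 0.44 (SE, edgeR adjusted p = 1.28e-08), higher in 8 of 36 libraries, lower in 1 and at 0 in both groups elsewhere. Star, which carries cholesterol into the mitochondrion, had 353 counts in 27 Gata6+Mef2c cells and 14 counts in 13 Mef2c-only cells (3.29 ± 0.55, adjusted p = 0.000672). Hsd3b1, the next enzyme of the pathway, had 332 counts in 3 Gata6+Mef2c cells and 5 counts in 5 Mef2c-only cells (3.67 ± 0.83, adjusted p = 0.0317). Akr1b7, an aldose reductase of the adrenal cortex, had 156 counts in 8 Gata6+Mef2c cells and 0 in Mef2c-only cells, at least 41.4-fold higher against a floor of 3 counts over the group. Mgarp, a mitochondrial protein of steroid-making cells, had 245 and 16 counts in 35 and 15 cells of Gata6+Mef2c and Mef2c-only cells (2.51 ± 0.50, adjusted p = 0.00478).

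These genes shared the same cells. Only 4 Gata6+Mef2c cells held 5 or more counts of Cyp11a1, in technical replicates 3, 19, 32 and 34, with 207, 47, 72 and 376 counts. They held 99.4% of the group's Cyp11a1, 100% of its Hsd3b1, 96.2% of its Akr1b7, 80.7% of its Star and 80.8% of its Mgarp. The enzyme Cyp11b1 (137 counts in Gata6+Mef2c cells, 6 in Mef2c-only cells) and the adrenal and gonadal factor Nr5a1 (13 and 0) were concentrated there as well, and were looked up after the values were seen. The 4 cells held no count of Upk3b, Wt1 or Gata4. Cells this rich in Cyp11a1 numbered 11 in the whole series, among them 0 of all 1460 cells with Mef2c alone, 2 of 1298 with Gata6 alone and 2 of 4882 with neither.

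With so few cells the steroid genes depended on the fit and on single libraries. DESeq2 gave Cyp11a1 a log2 fold change of 0.35 (adjusted p = 0.989), Akr1b7 0.44 (0.987), Star 0.85 (0.888), Mgarp 1.05 (0.749) and Hsd3b1 -0.39 (0.987). With Myod1 cells kept, Cyp11a1 was at 2.26 (adjusted p = 0.549), and without technical replicate 3 Hsd3b1 was at 2.12 (adjusted p = 0.354). Without the 4 rich cells, Star was at 1.04 (0.577) and Mgarp at 0.74 (0.742). Tac2, which encodes neurokinin B, had 214 counts in 17 Gata6+Mef2c cells and 4 counts in 3 Mef2c-only cells (4.10 ± 0.52, edgeR adjusted p = 3.46e-05; DESeq2 0.95, 0.962). Apela, a ligand of the apelin receptor in the early embryo, had 104 counts in 12 Gata6+Mef2c cells and 2 in Mef2c-only cells, a ratio of 41.4 with a 95% counting interval of 11.2 to 346. Its edgeR adjusted p was 0.0225, and 0.139 without technical replicate 24.

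Few sarcomere and heart genes passed the test, and those that did were held by a minority of the cells. Of 29 cardiomyocyte genes tested, 2 were called higher and none lower, with 25 above 0 and a median of 0.71. The summed cardiomyocyte level was 449, 1008 and 5325 CPM in the lowest, median and highest library of Gata6+Mef2c cells, against 255, 749 and 2427 CPM in Mef2c-only cells, and was higher in 24 of 36 libraries. Actc1, the cardiac actin that is also made in embryonic skeletal muscle, lay at 0, 15.0 and 1753 CPM in Gata6+Mef2c cells, against 0, 5.95 and 82.1 CPM in Mef2c-only cells. It had 1415 counts in 98 Gata6+Mef2c cells and was found in 65 Mef2c-only cells, and 10 cells held 86.4% of the counts in Gata6+Mef2c cells. Its log2 fold change was 2.41 ± 0.39 (SE, edgeR adjusted p = 0.00012), higher in 25 libraries and lower in 11. Nppa had 395 counts in 39 Gata6+Mef2c cells and 38 counts in 23 Mef2c-only cells, a rise of 2.28 ± 0.48 (adjusted p = 0.00708). Its model overlaps Gm13054, which was also called, and DESeq2 gave Nppa 1.53 (adjusted p = 0.301).

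Other heart genes had values that missed the threshold: Tnnt2, cardiac troponin T, at 0.99 (adjusted p = 0.0933), Ankrd1, a stress-responsive sarcomere protein, at 0.71 (0.120) and Myl7, the atrial light chain, at 2.59 (0.0774). Of 25 skeletal muscle genes tested, Tnni1, slow troponin I, rose by 1.67 ± 0.39 (edgeR adjusted p = 0.0198) and Mymk, the myoblast fusion protein, by 2.14 ± 0.53 (adjusted p = 0.036). The list stood at a median of 0.91 with 23 of 25 above 0, and the summed level was higher in 22 of 36 libraries, at 551 ± 912 CPM in Gata6+Mef2c cells and 312 ± 375 CPM in Mef2c-only cells (SD, n = 36 each). The SD of the skeletal muscle list exceeded its mean in both groups.

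Cells with myogenic genes moved with these values. Although Myod1 cells had been set aside, 71 Gata6+Mef2c cells and 44 Mef2c-only cells held counts of Myog, Myf5, Myf6, Mymk or Myh3. Without them, Actc1 was at 0.56 (adjusted p = 0.679) and Tnni1 at 0.74 (0.452). With cells matched on the Mef2c count too, Actc1 was at 0.65 (0.793), Tnni1 at 0.35 (0.945) and Mymk at 0.61 (0.904). That match put all counts of 3 or more in 1 class, so higher Mef2c counts were not matched. In the main pairs the highest Mef2c count was 65 in Gata6+Mef2c cells and 24 in Mef2c-only cells. Mymk was also at 1.69 (0.124) without technical replicate 24, and Tnni1 at 1.53 (0.0531) without the same library. With at least 2 counts of Gata6 required, the 3 genes stayed called, Actc1 at 3.58 (edgeR adjusted p = 3.9e-07), Tnni1 at 3.15 (1.1e-07) and Mymk at 3.59 (4.89e-05).

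The genes that fell in Gata6+Mef2c cells had small changes, between -0.35 and -1.40 on the log2 scale for the 11 named ones. Prrx2 lay at 14.7, 66.7 and 219.5 CPM in the lowest, median and highest library of Gata6+Mef2c cells, against 26.7, 89.95 and 149.7 CPM in Mef2c-only cells. It was lower in 28 of 36 libraries, with a log2 fold change of -0.48 ± 0.10 (SE, edgeR adjusted p = 0.00478). Prrx1 lay at 39.9, 393 and 694 CPM in Gata6+Mef2c cells, against 287.5, 472 and 923 CPM in Mef2c-only cells, a change of -0.35 ± 0.09 (adjusted p = 0.0381), lower in 29 libraries. These were the 2 genes called of 20 fibroblast markers, 5 of which were above 0, at a list median of -0.16. Prrx1 lost its call without any 1 of 17 libraries, to a highest adjusted p of 0.0617 without technical replicate 3, whereas Prrx2 kept it in all 36 such fits. Type I collagen Col1a1 was at -0.03 (adjusted p = 0.976).

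Col7a1, the anchoring fibril collagen of skin, lay at 0, 36.7 and 80.4 CPM in Gata6+Mef2c cells, against 3.35, 73.9 and 289 CPM in Mef2c-only cells. It fell by 0.93 ± 0.19 on the log2 scale (SE, edgeR adjusted p = 0.00478), in 27 of 36 libraries. Trib2, a pseudokinase, lay at 4.03, 31.3 and 83.5 CPM in Gata6+Mef2c cells, against 18.8, 48.6 and 107 CPM in Mef2c-only cells (-0.66 ± 0.14, adjusted p = 0.00695). Both kept their call whichever library was left out. Apod, a lipocalin, had the lowest fold change at -1.40 ± 0.36 (adjusted p = 0.0379), with 499 counts in 100 Gata6+Mef2c cells and 1080 counts in 108 Mef2c-only cells. Without cells marked as macrophage, endothelial or glial it was at -0.73 (adjusted p = 0.401). Such cells numbered 7, 11 and 12 in Gata6+Mef2c cells, against 5, 3 and 17 in Mef2c-only cells.

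Serpinf1, which encodes the secreted factor PEDF, lay at 75.2, 384 and 870 CPM in Gata6+Mef2c cells, against 162, 512 and 1033 CPM in Mef2c-only cells (-0.46 ± 0.11, edgeR adjusted p = 0.0248; 0.0509 without technical replicate 24). Irs1, the insulin receptor substrate, fell by 0.49 ± 0.12 (adjusted p = 0.0319; 0.0626 without technical replicate 15). Gm9747, whose model lies inside Irs1 on the other strand, had -0.55 (adjusted p = 0.0388), and without a stated strand the pair cannot be told apart. The cell cycle genes Cdca3 (-0.64, adjusted p = 0.0468) and Dbf4 (-0.45, 0.0395) and the LIM protein Lmo7 (-0.54, 0.0471) were called in 13, 17 and 11 of the 36 fits that left out 1 library. Their fold changes in those fits ran from -0.73 to -0.58 for Cdca3, from -0.50 to -0.40 for Dbf4 and from -0.60 to -0.47 for Lmo7. The highest adjusted p were 0.103 for Cdca3 and 0.09 for Dbf4 without technical replicate 29, and 0.0994 for Lmo7 without technical replicate 21. Of the 16 lower genes, 4 kept their call in all 36 fits, against 72 of the 111 higher genes.

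The 20 G2 and M phase genes, which mark dividing cells, all had fold changes below 0, with a median of -0.39. None was called, although 11 had an unadjusted p under 0.05 in edgeR, and DESeq2 called none. Their sum was 1420 ± 774 CPM in Gata6+Mef2c cells and 1886 ± 998 CPM in Mef2c-only cells (SD, n = 36 each), and it was higher in Gata6+Mef2c cells in 13 of 36 libraries. The 18 S phase genes had a median of -0.07, with none called and none at an unadjusted p under 0.05.

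The lists described in this paragraph had 1 called gene or none in edgeR. Interferon response genes were above 0 for 14 of 15, with a median of 0.18, 5 at an unadjusted p under 0.05 and none called by DESeq2. Genes reported as MEF2 targets (13 tested) had a median of 0.03 and 2 at an unadjusted p under 0.05, in groups that both held Mef2c. Among genes reported as GATA4 or GATA6 targets, 1 of 11 tested was called, Nppa, and 9 were above 0, with a median of 0.32. The smooth muscle list (17 genes, median 0.05, summed level 19050 ± 5877 CPM in Gata6+Mef2c cells and 19310 ± 4794 CPM in Mef2c-only cells) had 1 gene at an unadjusted p under 0.05. BMP and TGF-beta response genes (15, median -0.15) had 3 at that level and 1 called higher by DESeq2. Chemokines and cytokine receptors (15, median 0.39) had 6 at that level and 2 called lower by DESeq2. The p53 response (15, median 0.07) and cartilage (10, median 0.06) had 1 each, and the mitochondrial genome (7, median -0.05) had none, with none called by DESeq2 in these 3 lists.

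Markers of other cell types that the culture could hold were compared as well. Of 14 macrophage, 7 endothelial and 10 glial markers tested, none was called by edgeR or DESeq2, with 1, 0 and 2 at an unadjusted p under 0.05. The summed macrophage level ran from 0 to 1191 CPM in Gata6+Mef2c cells and from 0 to 888 CPM in Mef2c-only cells, with means of 102 ± 270 CPM in Gata6+Mef2c cells and 71.8 ± 180 CPM in Mef2c-only cells (SD, n = 36 each). It was higher in Gata6+Mef2c cells in 19 of 36 libraries, and its log2 ratio over pooled counts was 1.01, beside 0.89 for the mesothelial list. Endothelial markers, 3 of which had no count, summed to 13.3 to 225 CPM in Gata6+Mef2c cells and 8.91 to 397 CPM in Mef2c-only cells. Glial markers summed to 0 to 1242 CPM in Gata6+Mef2c cells and 0 to 301.5 CPM in Mef2c-only cells. Their part in the results above was not tested beyond dropping the marked cells. That gave 110 genes higher and 16 lower, among them 92 of the 111 and 10 of the 16, and all 127 kept their sign.

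Other factors of the pool were compared in the same fit. Of the 38 other factors of the pool tested, 1 was called, Hand2, at 0, 19.9 and 99.2 CPM in the lowest, median and highest library of Gata6+Mef2c cells, against 0, 5.65 and 49.99 CPM in Mef2c-only cells. The log2 fold change was 1.26 ± 0.28 (SE, edgeR adjusted p = 0.0125), higher in 28 of 36 libraries, and 3 of the 38 were higher at an unadjusted p under 0.05. Hand2 was found in 18.7% of Gata6+Mef2c cells and 11.5% of Mef2c-only cells, or 11.2% and 3.88% after thinning, against 6.98% and 2.56% of macrophage-marked cells. In pairs within 10% in total count, Hand2 was at 0.79 (adjusted p = 0.344). Foxn4, a winged helix factor, was found in 10.6% of Gata6+Mef2c cells and 5.59% of Mef2c-only cells, but in 3.68% and 2.95% after thinning, with a log2 fold change of 0.41 (adjusted p = 0.853).

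The mesothelial level was also set out by which other factors a cell held. Pairs whose Gata6+Mef2c cell held Hand2 (107 pairs) had 1669 CPM of mesothelial genes in Gata6+Mef2c cells and 347 CPM in their Mef2c-only partners. Pairs whose Gata6+Mef2c cell held Foxn4 (61 pairs) had 2063 and 304 CPM, and those whose cell held Gata4 (38 pairs) had 1221 and 389 CPM. With Nkx2-5 (59 pairs) the levels were 839 and 476.5 CPM, with Tbx5 (50 pairs) 751.5 and 438 CPM and with Mesp1 (78 pairs) 655 and 542 CPM. The order was the other way with Isl1 (50 pairs), at 704 CPM in Gata6+Mef2c cells and 972 CPM in their partners, and with Myocd (36 pairs), at 525 and 665 CPM. In the 272 pairs whose Gata6+Mef2c cell held none of 10 other factors, the levels were 564 CPM in Gata6+Mef2c cells and 507 CPM in Mef2c-only cells. The pairs were split by what their Gata6+Mef2c cell held, and the deeper cells hold more factors: the median totals of Gata6+Mef2c cells were 27330 counts with Hand2 and 15590 counts with none.

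Over all cells rather than pairs, Gata6+Mef2c cells had 1669 CPM of mesothelial genes with Hand2 and 788 CPM without it. All 1460 cells with Mef2c but no Gata6, matched or not, had 512 CPM with Hand2 and 515 CPM without it. Cells with Gata6 alone had 1617 CPM with Hand2 and 1114 CPM without it, and cells with neither had 687 and 536 CPM. With Foxn4 the levels were 2063 CPM in Gata6+Mef2c cells, 2469 CPM with Gata6 alone, 733 CPM with Mef2c alone and 1354 CPM with neither, each above the level without Foxn4 (825, 1108, 498 and 503 CPM). These are pooled counts over cells of unequal depth and have no test.

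**Figure D4:**
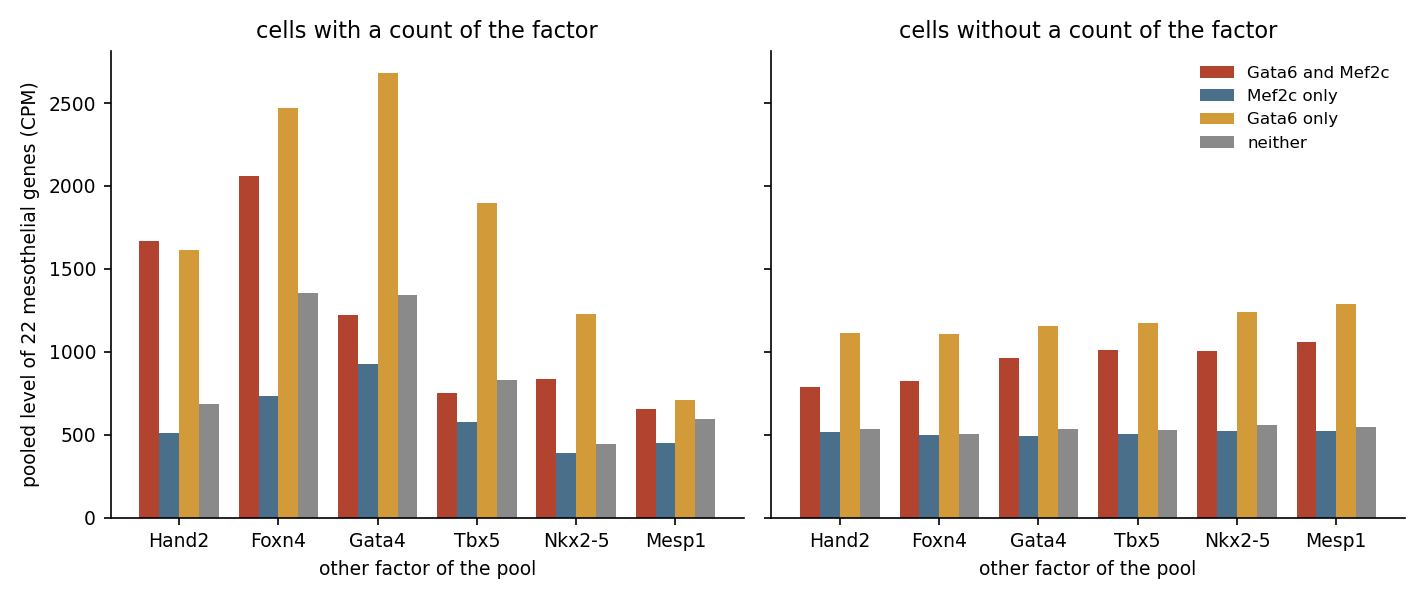
Pooled level of the 22 mesothelial and epicardial markers (y axis, CPM) in cells with (left) and without (right) a count of each of 6 other factors of the pool (x axis), as 1 bar for each of the 4 groups of cells, over all cells of each group rather than matched ones. Bars of cells with Hand2 reach 1669 CPM in Gata6+Mef2c cells and 512 CPM in cells with Mef2c alone, and those with Foxn4 reach 2063 and 733 CPM.

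When both cells of a pair lacked the other 10 factors, 260 pairs in 29 libraries gave 12 genes higher and none lower in edgeR, with 326 lower at an unadjusted p under 0.05. Of the 111 higher genes, 100 could be tested here, all 100 kept their sign and 8 were called. Upk3b was at 4.00 (adjusted p = 8.81e-05), Upk1b at 3.72 (3.81e-05) and Aldh1a1 at 2.74 (0.00269). Wt1 was at 1.49 (0.673), Lrrn4 at 2.76 (0.141), Dcn at 0.97 (0.185) and Col4a1 at 0.31 (0.380). The uroplakin genes were thus called also where none of these 10 factors was detected.

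Values near the detection threshold were as follows. Gata6+Mef2c cells with 1 count of Gata6 had 786 CPM of mesothelial genes, against 496 CPM in their partners with 0 counts. Those with 2 counts had 1114 CPM, against 571 CPM, and those with 3 or more had 1084 CPM, against 545 CPM. With at least 2 counts of Gata6 required (324 pairs), 181 genes were higher and 45 lower, and 94 of the 111 were among the 181. With at least 2 counts of Mef2c required of both cells (235 pairs), 1 gene was higher, Cyp11a1, and none lower. In that set 647 genes were higher and 213 lower at an unadjusted p under 0.05, and all 109 of the higher genes that could be tested kept their sign.

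Whether the difference that goes with Gata6 depends on Mef2c was asked with 4 groups. Each of 571 pairs was joined by a cell with Gata6 alone and a cell with neither transcript, matched in the same way. This match was incomplete as well. Median totals were 19006 counts in Gata6+Mef2c cells, 18021 in Mef2c-only cells, 15915 with Gata6 alone and 18979 with neither. Mean totals were 29651, 23927, 21302 and 23735 counts in the same order, so the 4 groups differ in depth. Upk3b was at 44.3 ± 60.6 CPM in Gata6+Mef2c cells and 2.28 ± 9.77 CPM in Mef2c-only cells, and at 43.6 ± 53.3 CPM in cells with Gata6 alone and 1.11 ± 2.44 CPM in cells with neither (SD, n = 36 each). The mesothelial list was at 970 ± 410 CPM in Gata6+Mef2c cells and 506 ± 275 CPM in Mef2c-only cells, and at 1060 ± 568 CPM with Gata6 alone and 524 ± 257 CPM with neither. Col4a1 was at 774 ± 287 CPM in Gata6+Mef2c cells and 564 ± 147 CPM in Mef2c-only cells, and at 845 ± 172 CPM with Gata6 alone and 618 ± 174 CPM with neither. Prrx2 was at 69.5 ± 37.1 CPM in Gata6+Mef2c cells and 92.1 ± 34.9 CPM in Mef2c-only cells, and at 63.6 ± 43.3 CPM with Gata6 alone and 87.0 ± 38.6 CPM with neither. For these genes the mean levels of the 2 groups with Gata6 lay closer to each other than to those of the groups without it. Muscle genes were otherwise. The skeletal muscle list was at 551 ± 912 CPM in Gata6+Mef2c cells and 313 ± 375 CPM in Mef2c-only cells. With Gata6 alone it was at 155 ± 130 CPM, below the 219.5 ± 217 CPM with neither. Actc1 was at 112 ± 308 and 11.3 ± 16.4 CPM beside Mef2c, and at 38.7 ± 137 and 6.76 ± 7.00 CPM without it. The median libraries were at 15.0 and 5.95 CPM beside Mef2c, and at 5.74 and 4.43 CPM without it. With Gata6 alone, 1 cell held 349 of the 498 Actc1 counts.

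**Figure D5:**
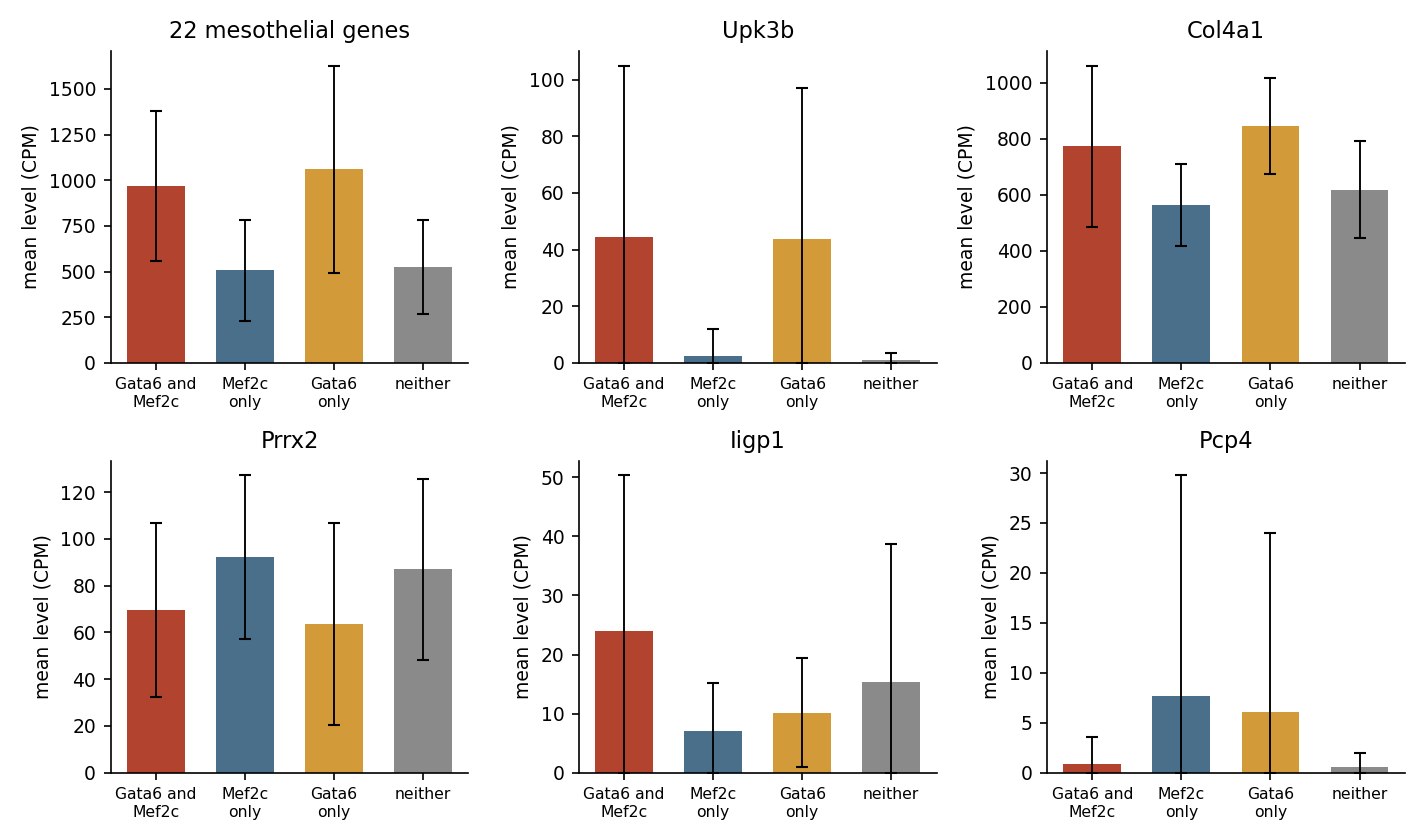
Mean level (y axes, CPM) of the mesothelial list, Upk3b, Col4a1, Prrx2, Iigp1 and Pcp4 in 4 groups of 571 matched cells each (x axis), with bars of ± SD over 36 libraries that end at 0 where the SD exceeds the mean. Mesothelial genes average 970 CPM in Gata6+Mef2c cells and 506 CPM in Mef2c-only cells, and 1060 CPM with Gata6 alone and 524 CPM with neither, while Iigp1 averages 24.0 CPM in Gata6+Mef2c cells and 7.10 to 15.4 CPM in the other groups.

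The test of the interaction asked whether the log2 difference between Gata6+Mef2c and Mef2c-only cells differed from that between cells with Gata6 alone and cells with neither. Of 15652 genes tested, 1 was higher and 2 were lower (0.0192% in either direction), and 725 had an unadjusted p under 0.05. None of the mesothelial genes was called, and their median interaction was -0.58. The skeletal muscle and cardiomyocyte lists had median interactions of 0.71 and 0.325, also with no gene called. Between cells with Gata6 alone and cells with neither, 153 genes were higher (0.978%) and 38 lower (0.243%). Of the 111 genes higher in Gata6+Mef2c cells, 59 were also higher there, which is 53.2% of the 111 and 38.6% of the 153. The comparisons use different cells of the same libraries.

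Genes with a like difference in both comparisons included Upk3b (4.28 beside Mef2c and 5.24 without it), Upk1b (3.74 and 4.17), Wt1 (2.30 and 1.84) and Prrx2 (-0.48 and -0.52). Tac2 had 4.10 beside Mef2c and 0.56 without it (adjusted p = 0.879), Nppa had 2.28 and 0.61 (0.822), and Mgarp 2.51 and 0.31 (0.943). None of these 3 was called in the interaction, so a difference between the comparisons was not shown for them. Iigp1, an interferon-inducible GTPase of defence against intracellular parasites, was the gene with a higher interaction, at 2.19 ± 0.46 (SE, edgeR adjusted p = 0.0401). It was at 24.0 ± 26.3 CPM in Gata6+Mef2c cells, 7.10 ± 8.00 CPM in Mef2c-only cells, 10.2 ± 9.21 CPM with Gata6 alone and 15.4 ± 23.3 CPM with neither (SD, n = 36 each). Between Gata6+Mef2c and Mef2c-only cells Iigp1 rose by 1.72 ± 0.27 (adjusted p = 9.75e-05), in 28 of 36 libraries, and it kept that call in all 36 fits that left out 1 library.

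The library names fall into 3 series, which are not described further in the sources used here. The 15 libraries of series JD (238 pairs) gave 35 genes higher and 8 lower, the 15 of PZ47-PZ48 (231 pairs) 9 and 0, and the 6 of PZ58 (104 pairs) 15 and 4. Each of these sets has fewer pairs than the whole, and 303 genes were lower at an unadjusted p under 0.05 in PZ47-PZ48. All 107 of the higher genes that could be tested in JD, all 107 in PZ47-PZ48 and 93 of 95 in PZ58 had the same sign as in the whole. In the 10 libraries with Rps27a above 100 CPM, a split by a ribosomal gene whose counts differ between libraries, 19 genes were higher and 2 lower, and in the other 26 libraries 62 and 5. The mesothelial log2 ratio was 0.91 and 0.88 in these classes.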

How the data were processed

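The deposited values are raw counts of each gene per cell barcode, with no normalization by the authors. Per the submitters' processing notes, the genome build was mm10 and the tools were bcl2fastq 2.17.1.14, STAR 2.5.3a, featureCounts 1.5.3 and UMI-tools. The gene models counted, strand setting, cell filter and treatment of reads mapping to several places are not given in the sources used here, so genes that overlap another are uncertain. Ensembl identifiers were matched to symbols for 27645 of 27999 rows. Of barcodes shared between libraries or 1 base apart, the copy with most counts was kept, which removed 165 of 8730. The lowest cell held 1610 counts. Of the pool, 43 factors have a gene row and its microRNAs are not analysed here. Doublets were not called; leaving out the 5% deepest cells was tried instead.

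Each Gata6+Mef2c cell was paired within its library by the assignment with the smallest summed difference of log total counts, and 68.4% of pairs lay within 10%. The Gata6+Mef2c cell was the deeper one in 65.1% of pairs. Counts were summed per library and group in libraries with at least 3 pairs. Genes with at least 20 counts were fitted with edgeR 4.0.16 (R 4.3.3, TMM scaling, library as block), and Gata6, Mef2c and Myod1 were left out of the calls. The SE given with edgeR values is the absolute log2 fold change divided by the square root of the F statistic of the test. DESeq2 1.42.0 was an alternative. Matching used scipy 1.17.1 with Python 3.11.15. Scripts were tested on simulated data. Intervals and floors cover counting error only. Fold changes of list members are given beside the same over all genes, and no list was tested as a set.

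The genes named are the 10 highest and 10 lowest fold changes among called genes with at least 50 counts and the same sign in the 3 series of library names, up to 4 called members of each list with the smallest adjusted p, the measured factors, and for the interaction up to 5 in each direction. Members of a list are also named where a count of the list is described, and any other gene was named after its value was seen. Of the genes that the rule selects, 1 is not reported here. The cells compared, the lists, the markers and the tests were chosen with earlier results of these data known. Alternatives changed the scaling, test, filter, block, matching, detection threshold, cells and libraries. The fits without 1 library at a time kept the scaling and dispersion trend of all libraries.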

Additional observations from a re-analysis of the deposited data

Results flagged for a closer look

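For 3 genes, the difference between Gata6+Mef2c and Mef2c-only cells itself differed from the one between cells with Gata6 alone and cells with neither, by the interaction test of edgeR. Iigp1 had an interaction of 2.19 on the log2 scale (adjusted p = 0.0401). It was at 24.0 ± 26.3 CPM in Gata6+Mef2c cells and 7.10 ± 8.00 CPM in Mef2c-only cells, and at 10.2 ± 9.21 CPM with Gata6 alone and 15.4 ± 23.3 CPM with neither (SD, n = 36 libraries each). Pcp4, a small calmodulin-binding protein, had an interaction of -4.74 (adjusted p = 0.00968), with 19 counts in 10 Gata6+Mef2c cells, 114 counts in 16 Mef2c-only cells, 78 counts in 13 cells with Gata6 alone and 9 counts in 6 cells with neither. Igsf5, an immunoglobulin superfamily gene, had an interaction of -4.02 (adjusted p = 0.0431), with 8, 51, 34 and 3 counts in the same groups. For Pcp4, the richest cell held 44 of the 78 counts with Gata6 alone and 35 of the 114 in Mef2c-only cells. For Igsf5, the richest cell held 22 of the 34 counts with Gata6 alone and 18 of the 51 in Mef2c-only cells. Few cells thus held much of the counts behind both interactions. The model of Igsf5 (chr16:96361668-96422121) does not overlap that of Pcp4 (chr16:96467606-96525793). Each of the 2 overlaps another gene model that bears the symbol Igsf5, so reads of Pcp4 and Igsf5 are uncertain there. None of the 3 was called without macrophage-, endothelial- and glial-marked cells, without mesothelial-marked cells or without the 5% deepest cells.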

How the results depend on the processing

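Against 111 genes higher and 16 lower, which is 0.754% and 0.109% of the genes tested, no filter on low counts gave 1.46% and 0.575%, no library block 1.16% and 0.190%, the small-count adjustment of edgeR (added after seeing the data) 1.19% and 0.251%, at least 2 counts of Gata6 1.30% and 0.322%, at least 2 counts of Mef2c 0.00734% and 0%, dropping mesothelial-marked cells 0.304% and 0.0414%, and dropping cells with another factor 0.0923% and 0%. The series JD, PZ47-PZ48 and PZ58 alone gave 0.258% and 0.0590%, 0.0690% and 0%, and 0.130% and 0.0346%. Libraries with Rps27a above 100 CPM gave 0.152% and 0.0160%, and the others 0.437% and 0.0353%. The lower share alone moved to 0.311% with DESeq2, 0.0732% in pairs within 10%, 1.10% without matching and 0.200% in libraries with 10 or more pairs. Leaving out 1 library gave 0.571% to 0.809% higher and 0.0408% to 0.150% lower, both lowest without technical replicate 24. RLE scaling, matching on Mef2c, keeping Myod1 cells, dropping myogenic, other marked or the deepest cells, keeping all barcodes, and dropping Cyp11a1-rich cells (added after seeing the data) stayed within 1.5 times of both numbers of genes. The genes called were not always the same. Of the 111 higher and 16 lower genes, RLE scaling kept 101 and 16, and keeping Myod1 cells 67 and 9. Matching on Mef2c kept 76 and 4, dropping myogenic cells 72 and 8, and dropping the deepest cells 73 and 3.

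Against 1 higher and 2 lower in the interaction, no filter gave 4 and 4, no library block 12 and 10, the small-count adjustment 6 higher, keeping Myod1 cells 0 and 1, dropping the deepest cells 0 and 1, and dropping mesothelial-marked cells or other marked cells 0 and 0. In these last 2 settings 390 and 404 genes were higher and 282 and 280 lower at an unadjusted p under 0.05. The interaction was not refitted without single libraries. Of 940 values of 40 genes that the naming rule selects under these settings, 596 kept the call, 343 missed the threshold with the same sign and 1 changed sign: Hsd3b1 with DESeq2, at -0.39. The causes were not tested. Genes with few counts are limited by depth.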

Other observations

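Other genes past the threshold, chosen after their values were seen, were as follows. Timp3, an inhibitor of matrix metalloproteinases, was higher in Gata6+Mef2c cells by 0.76 on the log2 scale (edgeR adjusted p = 0.000278), and Syn3, in whose intron it lies, by 0.75 (0.000305). Without a stated strand the reads of this pair cannot be told apart. The matrix metalloproteinase Mmp2 was higher by 0.38 (0.0171) and the cadherin Cdh2 by 0.57 (0.0233). Ddc, which makes dopamine and serotonin, was higher by 1.14 (0.000166), the peptidase Dpp4 by 2.22 (0.00478) and the homeodomain-only protein Hopx by 1.48 (0.0125). Lox, which crosslinks collagen, was lower (log2 fold change -0.26, adjusted p = 0.0411).

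Of the 573 Gata6+Mef2c cells, 14 had a barcode that also occurred in another library.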
